A study of Mus musculus with 32 samples.

Results

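The genes described here set the pace of the first gap phase of the cell cycle: the D cyclins Ccnd1, Ccnd2 and Ccnd3, their kinases Cdk4 and Cdk6, and the cyclin-dependent kinase inhibitors Cdkn1a, Cdkn1b, Cdkn2a, Cdkn2b and Cdkn2c. They were taken by symbol from the deposited gene tables, in which these 10 were found among 55487 genes, and all were followed whatever their values. RNA had been sequenced from 2 cell populations sorted by flow cytometry from mouse supraspinatus, a rotator cuff muscle: satellite cells, the muscle stem cells, and fibro-adipogenic progenitors (FAPs), the mesenchymal cells of the interstitium. Every host was a wild-type male C57BL/6J mouse aged 12 weeks, per the labels, and cardiotoxin, a membrane-lytic toxin of snake venom used to make muscle fibres die and regrow, had been injected into every muscle sampled. In the control muscle nothing further was done, and the other muscle of the same mouse received a graft of interscapular brown adipose tissue (BAT) from a donor aged 3 weeks. Cells were collected on day 3 and day 7 from different mice, which gave 8 groups (2 cell types, control or BAT muscle, 2 days) of 4 libraries each. There was no uninjured muscle and no muscle with a graft of another tissue among the groups, so each value describes regenerating muscle, and a BAT difference compares a graft with no graft.

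D cyclins accumulate when growth factors are present, bind CDK4 or CDK6, and let these kinases phosphorylate the retinoblastoma protein, which releases E2F factors and lets the cell enter S phase. The INK4 proteins encoded by Cdkn2a, Cdkn2b and Cdkn2c bind CDK4 and CDK6 and keep cyclin D off. The CIP/KIP proteins encoded by Cdkn1a (p21) and Cdkn1b (p27) chiefly restrain cyclin E with CDK2 and also help cyclin D complexes assemble. In muscle, Ccnd3 and Cdkn1a are known as genes that myoblasts turn up as they leave the cell cycle and differentiate, and Cdkn1b as a gene of quiescent stem cells.

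In GENCODE M21 (GRCm38), the build named for the counts being mm10, the D cyclin genes lie on chromosome 7 from 144929931 to 144939925 (Ccnd1, minus strand), on chromosome 6 from 127125162 to 127152193 (Ccnd2, minus) and on chromosome 17 from 47505051 to 47599691 (Ccnd3, plus). Cdk4 lies on chromosome 10 from 127063534 to 127067920 and Cdk6 on chromosome 5 from 3341485 to 3531008, both on the plus strand. Cdkn1a lies on chromosome 17 from 29090976 to 29100727 and Cdkn1b on chromosome 6 from 134920401 to 134925513, both on the plus strand. Cdkn2a and Cdkn2b are neighbours on the minus strand of chromosome 4, from 89274471 to 89294653 and from 89306299 to 89311039, and Cdkn2c lies on the same strand from 109660876 to 109667189.

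Cdk4 and Cdk6 were both higher in satellite cells than in FAPs and both fell in satellite cells from day 3 to day 7, as the values below show, and their upstream sequences are shown because they were the members with a Myc-type E-box (CACGTG, the same on both strands). The windows are the bases before the RefSeq start of transcription in GRCm38.p6, plus strand, as far as the first base that GENCODE M21 annotates as exon: 249 bases for Cdk4 at chr10:127063285-127063533 and 89 bases for Cdk6 at chr5:3343643-3343731. The Cdk6 window lies within the GENCODE span of Cdk6, which begins at 3341485, so it is upstream of that RefSeq start only. Capitals mark the E-box.
Cdk4: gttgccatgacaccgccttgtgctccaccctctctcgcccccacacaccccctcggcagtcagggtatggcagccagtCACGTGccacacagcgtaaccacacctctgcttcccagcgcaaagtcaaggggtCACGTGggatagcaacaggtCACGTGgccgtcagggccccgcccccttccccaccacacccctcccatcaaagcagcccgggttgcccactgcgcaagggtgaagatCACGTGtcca
Cdk6: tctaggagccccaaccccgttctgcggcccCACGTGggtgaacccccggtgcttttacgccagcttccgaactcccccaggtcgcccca

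The Cdk4 window held 4 E-boxes, which began 172, 118, 98 and 11 bases before the start, and the Cdk6 window held 1, which began 220 bases before it. In 250 bases before the start, an E-box of these letters was present in 6.02% of 32851 mouse promoters, and 4 or more in 7 of them (0.0213%). The sequence table held 12 promoters of 8 members, with no entry used for Ccnd1 or Ccnd2. In the same windows and on both strands, the E2F motif TTTNGCGC was found in 1 Cdkn2a promoter (1.13% of all promoters) and the cyclic AMP response element TGACGTCA in the Cdkn2b promoter (1.55%). The AP-1 motif TGANTCA was found in none (6.75%), and the GC box GGGCGG in 7 of the 12 (32.7%). No motif overlapped another in these windows. These are letter matches in a short window, and no binding was measured.

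Library totals ran from 19776809 to 46378988 counts with a median of 25664917, so that 3 counts, the limit a count of 0 allows, correspond to 0.0647 to 0.152 CPM (counts divided by the column total and scaled to 1000000). Sorting was checked on marker genes: Pax7 was 21 to 164 CPM in satellite cells and at most 1.20 in FAPs, and Pdgfra 251 to 436 CPM in FAPs and at most 19.1 in satellite cells. Itga7 was 319 to 873 CPM in satellite cells and 2.27 to 37.3 in FAPs. The summed CPM of 12 satellite cell markers was 3236 to 6611 in satellite cells and 398 to 1687 in FAPs. Ly6a, which encodes the Sca1 that the labels name in both sort gates, was 2.38 to 42.8 CPM in satellite cells against 426 to 1162 in FAPs. The summed CPM of 20 macrophage and monocyte markers was 2145 in day 3 control satellite cell replicate 3, 2467 in day 3 BAT satellite cell replicate 4 and 6066 in day 3 BAT FAP replicate 1. In day 7 satellite cells, 8 pericyte and smooth muscle markers summed to 2197 to 4088 CPM against 201 to 421 on day 3, and 8 Schwann and glial markers to 498 to 1438 against 87.4 to 179. The 4 libraries of the day 7 mouse numbered replicate 3 had 163 to 355 CPM of Xist and no Ddx3y count, while the other 28 had at most 0.161 and at least 29.1 CPM, although the labels call every mouse male. The days come from separate deposited tables and separate mice, so day and table cannot be told apart. In sorted populations, fewer expressing cells and less RNA per cell cannot be told apart either. Differences below are log2 values fitted by edgeR's quasi-likelihood test on TMM-scaled counts with Benjamini-Hochberg adjustment over all genes tested, and a gene was called at an adjusted p under 0.05.

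Ccnd1 was higher in satellite cells than in FAPs on both days. This cyclin is the classical early sensor of mitogens. Control satellite cells had 140, 104, 222 and 158 CPM of Ccnd1 on day 3 and 209, 101, 55.7 and 140 CPM on day 7. Control FAPs had 38.4, 33.3, 28.7 and 47.7 CPM on day 3 and 16.6, 26.1, 11.5 and 28.5 CPM on day 7. With the BAT groups included, all 16 satellite cell libraries (55.7 to 222 CPM) lay above all 16 FAP libraries (10.7 to 47.7 CPM). In control muscle the difference was 1.93 ± 0.09 (SE) on day 3 (3.81-fold, edgeR adjusted p = 4.76e-06) and 2.12 ± 0.28 on day 7 (4.33-fold, edgeR adjusted p = 0.00101). In satellite cells Ccnd1 was called lower on day 7 in BAT muscle (-1.01 ± 0.24, edgeR adjusted p = 0.00521). In control satellite cells it was not called (-0.66 ± 0.34, edgeR adjusted p = 0.118), and without day 7 replicate 1, the library at 209 CPM, the value was -0.92 (edgeR adjusted p = 0.0343, range 0.0343 to 0.475 over all alternatives). In FAPs the day differences of -0.76 ± 0.28 in control and -0.67 ± 0.23 in BAT muscle were not called (edgeR adjusted p = 0.0699 and 0.0582), whereas DESeq2 called both (adjusted p = 0.0288 and 0.0296).

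Ccnd2 had the opposite distribution: it had the highest CPM of the D cyclins in FAPs, was nearly missing from satellite cells on day 3, and rose in them by day 7. Control FAPs had 196, 170, 157 and 181 CPM on day 3 and 165, 211, 158 and 145 CPM on day 7. In control muscle, satellite cells had 9.47, 5.91, 13.2 and 2.92 CPM on day 3 and 58.9, 137, 43.8 and 59.2 CPM on day 7. BAT satellite cells had 7.47, 26.8, 4.40 and 16.6 CPM on day 3 and 88.1, 87.3, 84.4 and 67.3 CPM on day 7. On each day every satellite cell library lay below every FAP library, and every day 7 satellite cell library lay above every day 3 one. In control muscle Ccnd2 was lower in satellite cells by 26.6-fold on day 3 (-4.73 ± 0.36, edgeR adjusted p = 2.88e-05) and by 3.33-fold on day 7 (-1.73 ± 0.19, edgeR adjusted p = 4.42e-04). From day 3 to day 7 it rose 7.56-fold in control satellite cells (2.92 ± 0.50, edgeR adjusted p = 6.99e-04) and 4.95-fold in BAT satellite cells (2.31 ± 0.45, edgeR adjusted p = 0.00166). In FAPs no day difference was called (0.04 ± 0.18, edgeR adjusted p = 0.895 in control muscle).

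FAP markers are given beside the Ccnd2 values of satellite cell libraries, since some of the highest values coincided. On day 3 the summed CPM of 12 FAP markers in satellite cells was 336 to 3277, which is 1.13 to 11% of the mean FAP sum. The same share of the FAP Ccnd2 level would be 1.84 to 17.9 CPM, against 2.92 to 26.8 CPM measured. By Pdgfra alone, the FAP share was 0.0309 to 5.83% on day 3 and 0.347 to 2.38% on day 7, and Ly6a had a median of 5.84 CPM in satellite cells on day 3 and 5.56 CPM on day 7. The 2 highest day 3 values, 26.8 and 16.6 CPM in BAT replicates 2 and 4, were in the libraries with the highest FAP marker sums, 2047 and 3277 CPM. On day 7 the FAP marker sum was 2699 to 11858 CPM, or 3.33 to 14.6% of the FAP mean, which would give 5.65 to 24.8 CPM of Ccnd2 against 43.8 to 137 CPM measured. The highest of these, control replicate 2 at 137 CPM, again had the highest FAP marker sum, 11858 CPM. In day 7 control satellite cells the FAP marker sum and Ccnd2 had the same order. Sums of 2699, 5682, 6424 and 11858 CPM went with 43.8, 58.9, 59.2 and 137 CPM of Ccnd2. In day 7 BAT satellite cells the order differed: replicate 3 had the lowest sum, 2778 CPM, with 84.4 CPM of Ccnd2. Replicate 4 of that group had 4117 CPM with 67.3 CPM of Ccnd2. The part of FAP transcripts in these values was not tested. Pericyte and Schwann markers were also higher in day 7 satellite cells, as given above, and their part in the Ccnd2 rise was not tested.

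Ccnd3, the D cyclin associated with myogenic differentiation, rose in satellite cells. Control satellite cells had 68.7, 74.5, 76.0 and 102 CPM on day 3 and 428, 294, 251 and 415 CPM on day 7. BAT satellite cells had 52.4, 80.6, 61.9 and 118 CPM on day 3 and 310, 238, 251 and 292 CPM on day 7. FAPs stayed between 26.8 and 90.8 CPM in all 16 libraries. All 8 day 7 satellite cell libraries therefore lay above all other libraries of the study. The rise was 3.38-fold in control satellite cells (1.76 ± 0.18, edgeR adjusted p = 3.21e-05) and 2.93-fold in BAT satellite cells (1.55 ± 0.21, edgeR adjusted p = 2.39e-04). Satellite cells exceeded FAPs by 1.53-fold on day 3 in control muscle (0.61 ± 0.10, edgeR adjusted p = 0.0013) and by 4.01-fold on day 7 (2.00 ± 0.13, edgeR adjusted p = 5.82e-05). In FAPs the day differences of 0.45 ± 0.17 and 0.71 ± 0.25 in control and BAT muscle were not called (edgeR adjusted p = 0.0791 and 0.0633). Without day 7 replicate 3 they were 0.54 and 0.89 and both were called (edgeR adjusted p = 0.0364 and 0.0118, ranges over all alternatives 0.0364 to 0.203 and 0.0118 to 0.166).

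**Figure D1:**
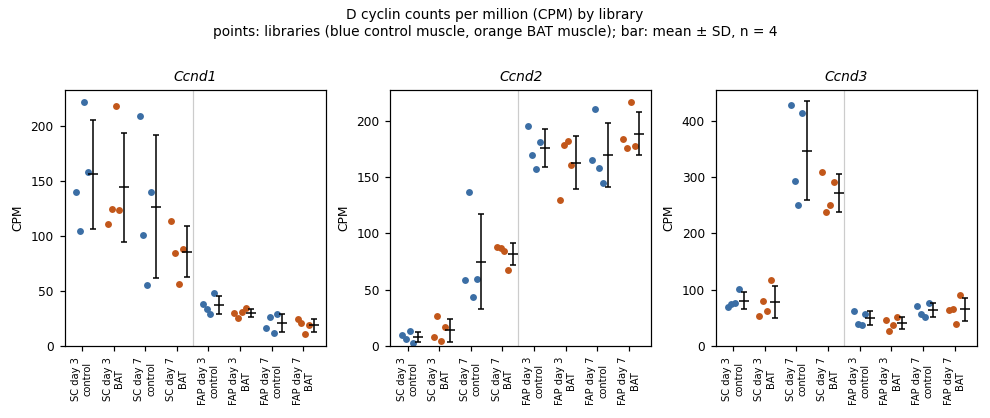
CPM (vertical axis) of Ccnd1, Ccnd2 and Ccnd3 in each library of the 8 groups; blue points are control and orange points BAT muscle, and the black bar is the group mean ± SD (n = 4). Ccnd1 is higher in satellite cells (SC), Ccnd2 in FAPs, and Ccnd3 is highest in day 7 satellite cells, at 238 to 428 CPM.

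To set the 3 cyclins beside each other, CPM were divided by exon length (4.71 kb for Ccnd1, 9.41 kb for Ccnd2 and 8.78 kb for Ccnd3). This is the length of all annotated exons of a gene joined, here and in the other values per kb of exon. Which transcripts were in use was not determined, so shares and rankings per kb depend on this choice of length. On this scale Ccnd1 made up 75.0% ± 7.39 (SD, n = 8) of the summed D cyclin CPM per kb in day 3 satellite cells. Ccnd3 made up 22.2% ± 6.4 and Ccnd2 2.87% ± 2.15. On day 7 Ccnd3 made up the largest share, 54.1% ± 5.29, with Ccnd1 at 32.7% ± 6.25 and Ccnd2 at 13.3% ± 5.20. The Ccnd1 share was 63.3 to 86.0% on day 3 and 24.2 to 44.6% on day 7, with no overlap. In FAPs Ccnd2 made up 59.8% ± 5.25 on day 3 and 62.6% ± 7.73 on day 7, and the Ccnd1 share was 23.5% ± 2.48 and 13.5% ± 3.97. The summed level was 42.0 ± 9.71 CPM per kb in day 3 and 66.1 ± 18.2 in day 7 satellite cells, and 30.2 ± 3.92 and 30.6 ± 2.83 in day 3 and day 7 FAPs. These shares are per library on column totals and were not tested. Here and below, n = 8 stands for the control and BAT libraries of the same 4 mice, which are not independent.

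**Figure D2:**
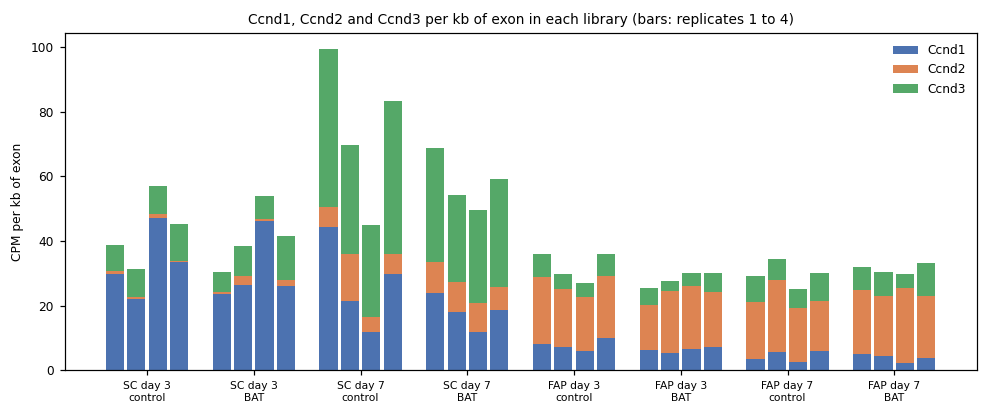
CPM per kb of exon (vertical axis) of Ccnd1, Ccnd2 and Ccnd3, stacked, in each library, with replicates 1 to 4 side by side in the 8 groups. Blue (Ccnd1) fills most of the day 3 satellite cell bars, green (Ccnd3) the largest part of the day 7 ones, and orange (Ccnd2) most of each FAP bar.

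Cdk4, the D cyclin kinase with the higher CPM, ordered the 4 combinations of cell type and day without overlap. In control muscle, satellite cells had 766, 793, 762 and 790 CPM on day 3 and 546, 417, 578 and 513 CPM on day 7. Control FAPs had 379, 392, 381 and 366 CPM on day 3 and 220, 206, 292 and 252 CPM on day 7. BAT libraries had 756 to 805, 427 to 601, 371 to 394 and 206 to 285 CPM in the same order and overlapped with the control libraries of their cell type and day. Cdk4 was higher in satellite cells by 1.89-fold on day 3 (0.92 ± 0.08, edgeR adjusted p = 5.10e-05) and by 1.59-fold on day 7 (0.67 ± 0.13, edgeR adjusted p = 0.00456) in control muscle. It fell to day 7 by 1.95-fold in control satellite cells (-0.96 ± 0.12, edgeR adjusted p = 8.88e-05) and also in control FAPs (-0.59 ± 0.15, edgeR adjusted p = 0.0188). The FAP call was lost without day 3 replicate 2, day 3 replicate 3 or day 7 replicate 1 (edgeR adjusted p = 0.067, 0.0647 and 0.0598, range 0.00131 to 0.067 over all alternatives). In BAT muscle the day differences were -0.83 ± 0.14 in satellite cells and -0.62 ± 0.14 in FAPs (edgeR adjusted p = 8.41e-04 and 0.0131).

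Cdk6 showed the widest gap between the cell types among the kinases. Control satellite cells had 320, 251, 390 and 390 CPM on day 3 and 189, 174, 178 and 174 CPM on day 7. Control FAPs had 21.2, 14.6, 13.3 and 18.9 CPM on day 3 and 21.9, 40.1, 39.0 and 20.8 CPM on day 7. The lowest of all satellite cell libraries, at 145 CPM, lay above the highest FAP library, at 40.1 CPM, and the days did not overlap in satellite cells. Satellite cells exceeded FAPs 18.4-fold on day 3 (4.20 ± 0.09, edgeR adjusted p = 1.03e-06) and 4.58-fold on day 7 (2.20 ± 0.23, edgeR adjusted p = 3.48e-04). Cdk6 fell 2.40-fold from day 3 to day 7 in control satellite cells (-1.27 ± 0.13, edgeR adjusted p = 3.28e-05) and 2.58-fold in BAT satellite cells (-1.37 ± 0.16, edgeR adjusted p = 1.05e-04). In control FAPs it was called higher on day 7 (0.95 ± 0.28, edgeR adjusted p = 0.0327), although the libraries at 20.8 and 21.9 CPM on day 7 lay beside the highest on day 3, at 21.2 CPM. That call was lost without day 3 replicate 2, 3 or 4 or day 7 replicate 2 or 3 (edgeR adjusted p = 0.0561 to 0.094). In BAT FAPs the difference of 0.58 ± 0.32 was not called (edgeR adjusted p = 0.205). There day 3 replicate 1, the library with 6066 CPM of macrophage markers, had 38.2 CPM of Cdk6 against 16 to 17.1 in the other 3, and without it the difference was 0.99 (edgeR adjusted p = 0.0146, range 0.0146 to 0.409 over all alternatives). Per kb of exon (3.25 kb for Cdk4 and 13.99 kb for Cdk6), Cdk6 made up 9.48% ± 1.52 (SD, n = 8) of the 2 kinases in day 3 satellite cells, 7.32% ± 1.34 in day 7 satellite cells, 1.17% ± 0.467 in day 3 FAPs and 2.94% ± 0.934 in day 7 FAPs.

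Cdkn1a, which encodes p21, a target of p53 and of MyoD, was high in satellite cells on day 3 and fell to day 7, when its values overlapped with those of FAPs. In control muscle, satellite cells had 497, 451, 442 and 538 CPM on day 3 and 240, 339, 228 and 271 CPM on day 7. Control FAPs had 119, 152, 86.8 and 111 CPM on day 3 and 225, 328, 137 and 108 CPM on day 7. The control satellite cells did not overlap with the FAPs on day 3, and did on day 7. The cell types differed 3.85-fold on day 3 (1.95 ± 0.14, edgeR adjusted p = 2.01e-05) and no difference was called on day 7 (0.13 ± 0.25, 95% interval -0.46 to 0.71, edgeR adjusted p = 0.705). Cdkn1a fell 2.27-fold in control satellite cells (-1.18 ± 0.16, edgeR adjusted p = 1.88e-04) and 2.04-fold in BAT satellite cells (-1.03 ± 0.24, edgeR adjusted p = 0.00461). In control FAPs the value was 0.87 ± 0.37 and was not called (edgeR adjusted p = 0.107), except without day 7 replicate 4 (1.11, edgeR adjusted p = 0.0401, range 0.0401 to 0.299 over all alternatives).

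Cdkn1b, which encodes p27, differed little between the populations. Control satellite cells had 15.9, 20.3, 12.2 and 14.5 CPM on day 3 and 23.5, 27.7, 21.8 and 24.2 CPM on day 7, and control FAPs had 22.0, 11.8, 19.6 and 15.6 CPM and then 21.1, 18.3, 21.8 and 34.4 CPM. The cell types overlapped on both days, and no difference was called in control muscle (-0.23 ± 0.16 on day 3 and -0.36 ± 0.18 on day 7, edgeR adjusted p = 0.22 and 0.139). In satellite cells the CPM of the 2 days did not overlap, yet on TMM-scaled counts the day difference was not called (0.26 ± 0.20 in control and 0.36 ± 0.15 in BAT muscle, edgeR adjusted p = 0.284 and 0.0635). On column totals the same differences were 0.63 and 0.62 and both were called (edgeR adjusted p = 0.0101 and 0.0053, ranges over all alternatives 0.0101 to 0.604 and 0.0053 to 0.358). The scaling matters for satellite cells on day 7, since the median over all genes of the control day difference was 0.03 with TMM and 0.39 with column totals, and that of the day 7 difference between cell types 0.05 and 0.47. Changes are therefore given relative to the TMM scaling. Per kb of exon (3.55 kb for Cdkn1a and 4.55 kb for Cdkn1b), the level of Cdkn1a was 132 ± 19.7 CPM per kb in day 3 satellite cells (SD, n = 8) against 3.59 ± 0.587 for Cdkn1b.

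The INK4 genes followed separate courses. Cdkn2a, which encodes p16Ink4a and, from another first exon, p19Arf, was found almost wholly in satellite cells, and counts per gene do not separate its products. In control muscle, satellite cells had 3.14, 4.40, 3.96 and 3.20 CPM on day 3 and 4.40, 3.58, 3.33 and 3.28 CPM on day 7. Control FAPs had 0.0743, 0.186, 0 and 0.379 CPM on day 3 and 0.0816, 0.590, 0.589 and 0.686 CPM on day 7. The lowest satellite cell library of the 16, at 2.22 CPM, lay above the highest FAP library, at 0.686 CPM, and 8 of the 16 FAP libraries held 3 counts or fewer. Satellite cells exceeded FAPs by 4.45 ± 0.60 on day 3 (edgeR adjusted p = 4.74e-04) and by 2.57 ± 0.56 on day 7 (edgeR adjusted p = 0.00837) in control muscle. These sizes rest on few FAP counts: leaving out 1 mouse at a time gave 3.97 to 5.09 on day 3 and 2.03 to 2.79 on day 7. On day 3 control FAPs held 2, 5, 0 and 10 counts, and among day 3 FAPs alone the gene was left out for low counts. The filter thus kept Cdkn2a on day 3 through satellite cells only, and its call as higher there was close to fixed beforehand. On day 7 control FAPs held 2, 18, 13 and 20 counts, and BAT FAPs 12, 12, 2 and 2. Neither group alone would have met the filter (about 10 counts in each of its 4 libraries), so satellite cells carried the gene there too. The day 7 calls as higher are therefore not independent of the filter. No day difference was called in satellite cells (-0.38 ± 0.22 in control muscle, edgeR adjusted p = 0.171).

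Cdkn2b, which encodes p15Ink4b and answers to TGF-beta, rose in FAPs. Control FAPs had 2.86, 2.49, 3.13 and 2.08 CPM on day 3 and 5.55, 12.8, 10.6 and 4.59 CPM on day 7, and BAT FAPs had 2.33, 2.01, 3.71 and 2.46 CPM and then 7.90, 16.9, 5.82 and 8.66 CPM. The days did not overlap. The rise was 3.42-fold in control FAPs (1.77 ± 0.38, edgeR adjusted p = 0.00967) and 3.90-fold in BAT FAPs (1.96 ± 0.39, edgeR adjusted p = 0.00819). Control satellite cells had 6.55, 8.21, 4.36 and 4.34 CPM on day 3 and 8.42, 9.90, 7.97 and 10.3 CPM on day 7, a day difference of 0.26 ± 0.27 that was not called (edgeR adjusted p = 0.418). On column totals it was 0.64 and was called (edgeR adjusted p = 0.0408, range 0.0408 to 0.768 over all alternatives). Satellite cells exceeded FAPs 2.00-fold on day 3 in control muscle (1.00 ± 0.20, edgeR adjusted p = 0.00295), and no difference was called on day 7 (-0.19 ± 0.32, 95% interval -0.95 to 0.57, edgeR adjusted p = 0.669).

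Cdkn2c, which encodes p18Ink4c, rose in both cell types. In control muscle, satellite cells had 7.99, 8.82, 7.81 and 8.13 CPM on day 3 and 23.0, 13.8, 15.1 and 15.9 CPM on day 7. Control FAPs had 8.29, 5.35, 6.92 and 5.95 CPM on day 3 and 13.7, 8.62, 12.1 and 11.8 CPM on day 7. In each cell type the days did not overlap, in control or in BAT muscle. The rise was 1.61-fold in control satellite cells (0.68 ± 0.18, edgeR adjusted p = 0.00744) and 1.81-fold in control FAPs (0.86 ± 0.19, edgeR adjusted p = 0.011), and 0.68 ± 0.17 and 0.99 ± 0.17 in BAT muscle (edgeR adjusted p = 0.00703 and 0.00494). Between the cell types no difference was called in control muscle (0.20 ± 0.14 on day 3 and 0.13 ± 0.16 on day 7, edgeR adjusted p = 0.236 and 0.534), and on column totals the day 7 value was 0.55 and was called (edgeR adjusted p = 0.0239, range 0.0239 to 0.836). In BAT muscle on day 3 satellite cells were higher (0.49 ± 0.14, edgeR adjusted p = 0.019), a call lost without satellite cell replicate 1 (0.50, edgeR adjusted p = 0.0628, range 0.00185 to 0.0628).

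**Figure D3:**
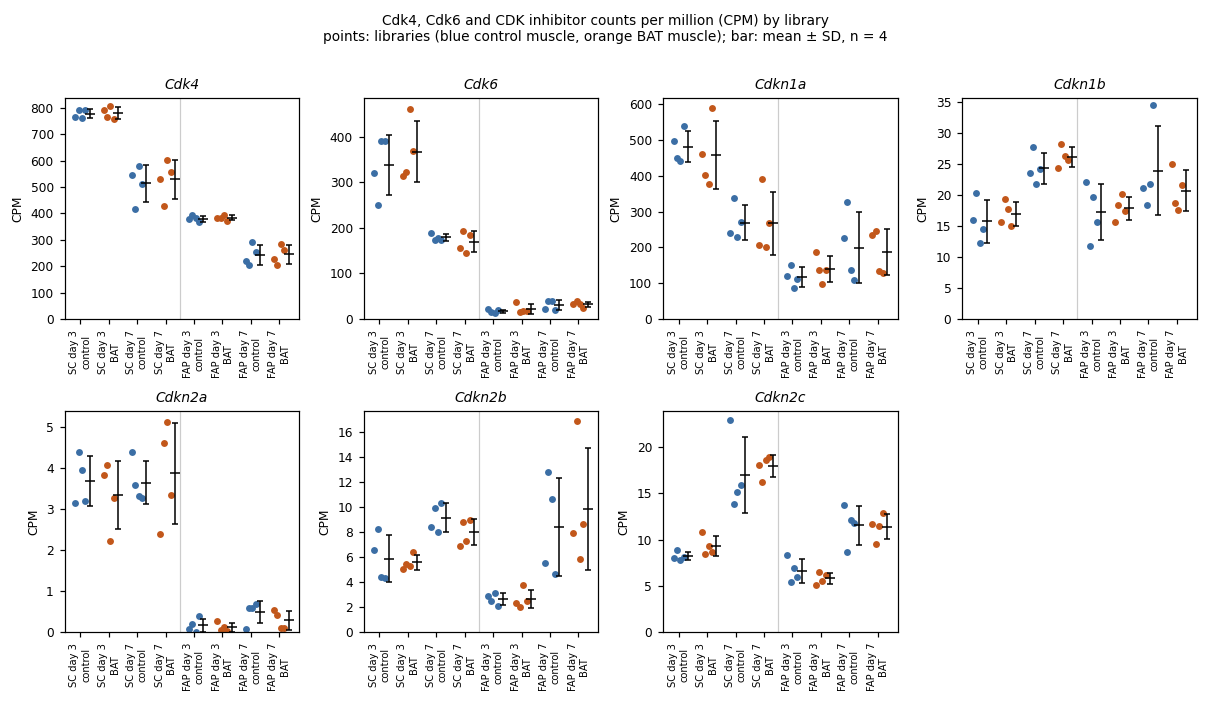
CPM (vertical axis, from 0) of Cdk4, Cdk6, Cdkn1a, Cdkn1b, Cdkn2a, Cdkn2b and Cdkn2c in each library of the 8 groups, with control muscle in blue, BAT muscle in orange and the group mean ± SD (n = 4) in black. Cdk4, Cdk6 and Cdkn1a are highest in day 3 satellite cells (SC), Cdkn2a is under 0.7 CPM in all FAP libraries, and Cdkn2b and Cdkn2c are higher in day 7 than in day 3 FAPs.

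Counted over the members, satellite cells differed from FAPs in 8 of 10 genes in control muscle on day 3, with 7 higher and 1 lower, where 35.8% of all genes tested were called higher and 35.9% lower. On day 7 the count was 5 higher and 1 lower (22.5% and 22.6% of all genes). In BAT muscle it was 8 higher and 1 lower on day 3 (31.1% and 35.4%) and 5 higher and 1 lower on day 7 (24.5% and 25.3%), and in each of the 4 comparisons the lower gene was Ccnd2. Cdkn2a is among the higher genes in each of the 4. In each it passed the filter through satellite cells, as FAPs alone would not have met it. From day 3 to day 7 control satellite cells had 3 members higher (Ccnd2, Ccnd3, Cdkn2c) and 3 lower (Cdk4, Cdk6, Cdkn1a), where 29.7% and 29.8% of all genes were called. BAT satellite cells had 3 higher and 4 lower, Ccnd1 being added (28.5% and 24.4%). Control FAPs had 3 higher (Cdk6, Cdkn2b, Cdkn2c) and 1 lower (Cdk4), against 11.5% and 11.4% of all genes, and the count of 4 fell to 2 without day 3 replicate 2 or day 3 replicate 3. BAT FAPs had 2 higher and 1 lower of the 9 members tested (10.3% and 12.6%), Cdkn2a having been left out for low counts, and DESeq2 called 5 there, Ccnd1 and Ccnd3 being added. Over all genes DESeq2 called 2309 higher and 2408 lower of 15903 in that comparison. Without the mouse of day 7 replicate 3, BAT day 7 muscle had 7 members called between cell types, Cdkn2b being added, control FAPs had 4 called between days, with Ccnd3 in place of Cdk6, and BAT FAPs had 4, Ccnd3 being added. Without the 3 day 3 libraries rich in macrophage markers, Cdk6 was added in BAT FAPs, and the other counts were as with all libraries. The median difference over the members was 0.96 on day 3 and 0.40 on day 7 between cell types in control muscle, against 0.03 and 0.05 over all genes. Between days it was -0.06 in control satellite cells and 0.69 in control FAPs, against 0.03 and 0.09. The control and BAT comparisons use different libraries of the same mice, and the cell type and day comparisons share libraries.

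**Figure D4:**
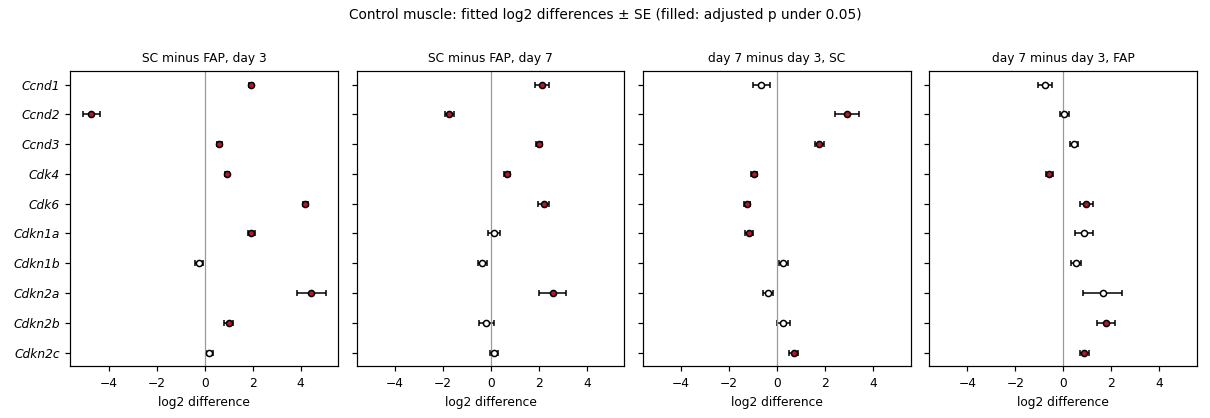
Fitted log2 differences (horizontal axis) ± SE of the 10 members in control muscle: satellite cells (SC) minus FAPs on day 3 and day 7, and day 7 minus day 3 in each cell type; filled points have an edgeR adjusted p under 0.05. Ccnd2 lies at -4.73 and Cdk6 at 4.20 between the cell types on day 3, and Ccnd2 (2.92) and Cdk6 (-1.27) lie on opposite sides of 0 for the change in satellite cells.

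For 4 of the 10 members the change from day 3 to day 7 itself differed between the cell types in control muscle, tested as an interaction with mouse as a block, with 2 more positive and 2 more negative in satellite cells. Over all genes 15.4% were called more positive and 8.39% more negative. Ccnd2 rose more in satellite cells, by 3.03 ± 0.45 (edgeR adjusted p = 0.00159), and so did Ccnd3, by 1.41 ± 0.15 (edgeR adjusted p = 3.53e-04). Cdk6 and Cdkn1a changed more negatively in satellite cells, by -1.98 ± 0.26 and -1.80 ± 0.31 (edgeR adjusted p = 8.77e-04 and 0.00323). For Cdk4 the difference was -0.23 ± 0.13 (95% interval -0.52 to 0.05, edgeR adjusted p = 0.214), and for Cdkn2c -0.06 ± 0.20 (95% interval -0.50 to 0.39, edgeR adjusted p = 0.87), so that neither was called. For Cdkn2b it was -1.17 ± 0.42 (edgeR adjusted p = 0.0682), and DESeq2 called it (-1.26, adjusted p = 0.0241, range over all alternatives 0.0146 to 0.15).

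The BAT graft was followed by no called change of any member. In satellite cells on day 3, 0 of 10 members were called with edgeR, 0 with DESeq2 and 0 at an unadjusted p under 0.05, where 0% of all genes were called and 472 of 15631 had such a p. On day 7, 0 of 10 were called with either tool and 2 had an unadjusted p under 0.05, where 0.0178% of all genes were called and 1261 of 16868 had such a p. In FAPs on day 3, 0 of 9 were called with either tool and 1 had an unadjusted p under 0.05, where 0.0188% of all genes were called and 730 of 15948 had such a p. On day 7 in FAPs, 0 of 10 were called with either tool and 0 had such a p, where 0% of all genes were called and 783 of 16021 had such a p. These values over all genes are from edgeR. DESeq2 called 0 of 15631 genes in day 3 satellite cells, and 5 higher and 35 lower of 13597 on day 7. In FAPs it called 37 higher and 3 lower of 12547 on day 3, and 14 higher and 9 lower of 10740 on day 7. The day 7 satellite cell members with an unadjusted p under 0.05 were Ccnd1 and Ccnd3. Ccnd1 was 113, 84.4, 56.5 and 88.3 CPM in BAT muscle. Both were lower than in the control muscle of the same mouse in 3 of 4 mice. Their differences were -0.43 ± 0.15 (95% interval -0.76 to -0.11) and -0.30 ± 0.11 (-0.55 to -0.05), with edgeR adjusted p = 0.627 and 0.633. In day 3 FAPs it was Ccnd3, lower in 4 of 4 mice by a fitted -0.26 ± 0.11 (edgeR adjusted p = 0.957). In day 7 satellite cells Cdkn2b was lower in 4 of 4 mice (mean of the pairs -0.19 ± 0.06, SD) and Cdkn1b higher in 4 of 4 (0.11 ± 0.11), with edgeR adjusted p = 0.782 and 0.804. No other member moved one way in all 4 mice of a comparison. For Cdk4 the 95% intervals of the BAT difference were -0.15 to 0.17 and -0.14 to 0.27 in satellite cells on day 3 and day 7, and -0.14 to 0.23 and -0.16 to 0.22 in FAPs. For Ccnd2 in day 3 satellite cells the interval ran from -1.12 to 2.59, so a change of either sign and some size was not detectable there. Leaving out either set of libraries, the mouse of day 7 replicate 3 or the macrophage-rich ones, gave 0 members called for BAT in each comparison as well. Nor did the BAT difference of any member differ between days (0 of 10 in satellite cells and 0 of 10 in FAPs, 0% of all genes in each) or between cell types (0 of 10 on day 3, 0.0229% of all genes, and 0 of 10 on day 7, 0%), with edgeR and with DESeq2, and 0 members had an unadjusted p under 0.05 in these 4 tests. The shares of all genes are again from edgeR. Between days DESeq2 called 0 genes more positive and 7 more negative of 5713 in satellite cells, and 0 and 1 of 17284 in FAPs. Between cell types it called 4 and 8 of 13048 on day 3, and 3 and 4 of 15236 on day 7.

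**Figure D5:**
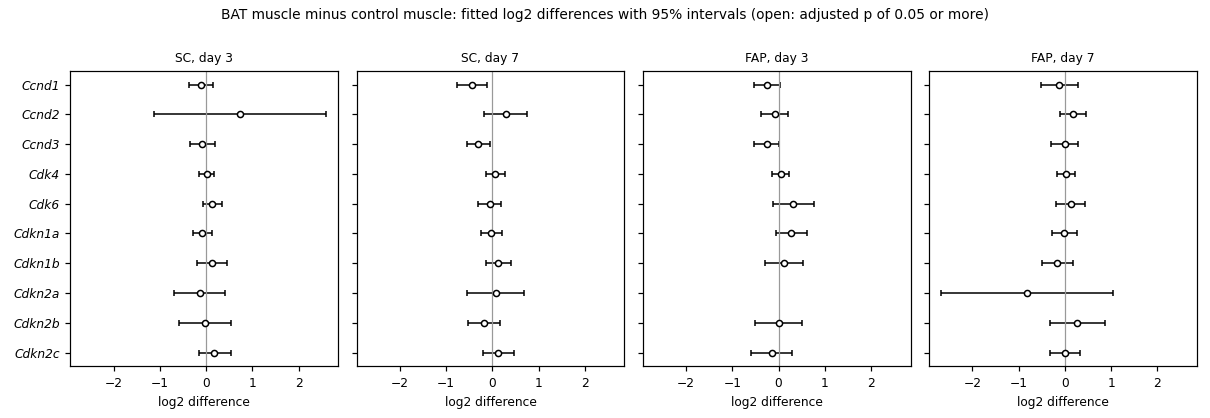
Fitted log2 differences (horizontal axis) of BAT minus control muscle for each member tested, with 95% intervals, in satellite cells (SC) and FAPs on day 3 and day 7; all points are open because no adjusted p was under 0.05. The intervals of Cdk4 are the narrow ones around 0, and those of Ccnd2 in day 3 satellite cells and of Cdkn2a in day 7 FAPs (-2.67 to 1.05) are wide.

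The partners of these proteins were read from lists of genes. Of 30 partners of the first gap phase (cyclin E, CDK2, retinoblastoma family, E2F factors and the assembly and turnover factors of cyclin D complexes), 20 were higher and 5 lower in satellite cells than in FAPs in control muscle on day 3, with a median difference of 0.74 against 0.03 over all genes, of which 35.8% were called higher and 35.9% lower. On day 7 it was 17 higher and 2 lower (median 0.65 against 0.05; 22.5% and 22.6% of all genes). E2f2, an activating E2F, was 113 ± 36.5 TMM-scaled CPM (SD, n = 4) in day 3 control satellite cells against 2.58 ± 1.40 in FAPs (5.50 ± 0.16, edgeR adjusted p = 1.48e-06), and Cdkn1c, the remaining CIP/KIP inhibitor (p57), was 98.1 ± 38.3 against 7.43 ± 1.32 (3.65 ± 0.15, edgeR adjusted p = 2.84e-06). From day 3 to day 7, 6 rose and 14 fell in control satellite cells (median -0.35 against 0.03) and 4 rose and 6 fell in control FAPs (median -0.22 against 0.09). Of all genes, 29.7% rose and 29.8% fell in satellite cells, and 11.5% and 11.4% in FAPs. Cdkn1c and Rbl2, a retinoblastoma family member linked to quiescence, rose in both: Cdkn1c by 1.31 ± 0.31 in satellite cells and 4.64 ± 0.65 in FAPs, where it was 174 ± 152 TMM-scaled CPM on day 7 (edgeR adjusted p = 0.00463 and 0.00204), and Rbl2 by 1.16 ± 0.13 and 0.84 ± 0.16 (edgeR adjusted p = 6.31e-05 and 0.00633). Cks1b, a CDK-binding factor needed for p27 turnover, fell by 1.98 on the log2 scale in satellite cells and by 1.27 in FAPs (edgeR adjusted p = 9.30e-06 and 0.00217).

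Of 30 genes of DNA replication and mitosis, all 30 were tested, 29 were higher and 0 lower in satellite cells than in FAPs on day 3, and 30 were higher on day 7 (medians 1.21 and 2.29, against 0.03 and 0.05 over all genes). Of all genes 35.8% were called higher on day 3 and 22.5% on day 7. From day 3 to day 7, 0 rose and 27 fell in control satellite cells (median -0.83 against 0.03) and 0 rose and 28 fell in control FAPs (median -1.72 against 0.09), where 29.8% and 11.4% of all genes fell. Rrm2, a subunit of ribonucleotide reductase, fell by 1.74 ± 0.12 (SE) on the log2 scale in satellite cells (edgeR adjusted p = 4.36e-06), and Tk1, thymidine kinase, by 2.28 ± 0.31 in FAPs (edgeR adjusted p = 0.00183). For 17 of the 30 the change was more positive in satellite cells by the interaction test, and for 0 more negative, against 15.4% and 8.39% of all genes. In satellite cells 27 of these genes, Cdk4 and Cdk6 were thus lower on day 7, while Ccnd2, Ccnd3 and Cdkn2c were higher.

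Of p53 and its targets, a list of 26 genes without Cdkn1a, 12 were higher and 8 lower in control satellite cells than in FAPs on day 3 (median 0.28 against 0.03 over all genes), and 7 and 6 on day 7 (median 0.16 against 0.05). Of all genes 35.8% were higher and 35.9% lower on day 3, and 22.5% and 22.6% on day 7. In satellite cells 8 rose and 6 fell to day 7 (median 0.03, as over all genes, of which 29.7% rose and 29.8% fell). The fall of Cdkn1a was shared with Tigar (-1.78 ± 0.20, edgeR adjusted p = 6.14e-05) and Bax (-0.95 ± 0.13, edgeR adjusted p = 1.67e-04) and not with Btg2 (2.38 ± 0.24, edgeR adjusted p = 3.19e-05) or Sesn1 (1.98 ± 0.18, edgeR adjusted p = 1.88e-05). Tigar is a regulator of glycolysis, Bax promotes cell death, Btg2 restrains proliferation and Sesn1 is a stress-response gene. In FAPs 6 rose and 1, Gtse1, fell (median 0.36 against 0.09; 11.5% and 11.4% of all genes).

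Of 36 regulators of D cyclin and INK4 transcription, 9 were higher and 22 lower in control satellite cells than in FAPs on day 3 (median -0.83 against 0.03 over all genes), and 9 and 15 on day 7 (median -0.30 against 0.05). Of all genes 35.8% were higher and 35.9% lower on day 3, and 22.5% and 22.6% on day 7. Ezh2, the Polycomb methyltransferase that silences the INK4 locus, was 63.3 ± 3.39 TMM-scaled CPM in day 3 satellite cells (SD, n = 4) against 14.9 ± 1.25 in FAPs (2.09 ± 0.08, edgeR adjusted p = 2.48e-06), and Kdm6b, a demethylase of the same mark, was 35.9 ± 7.36 against 150 ± 22.1 (-2.08 ± 0.12, edgeR adjusted p = 8.38e-06). Stat3 was lower in satellite cells on day 3 (-2.50 ± 0.08, edgeR adjusted p = 1.73e-06) and rose in them to day 7 (2.14 ± 0.19, edgeR adjusted p = 1.54e-05). From day 3 to day 7, 16 rose and 7 fell in satellite cells, and 8 rose and 1, the Polycomb subunit Eed, fell among 35 tested in FAPs (median 0.41 in both, against 0.03 and 0.09). Of all genes 29.7% rose and 29.8% fell in satellite cells, and 11.5% and 11.4% in FAPs. No gene of these 4 lists was called for the BAT graft in either cell type on either day with edgeR.

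The genes whose log2(CPM + 1) followed a member most closely over the 32 libraries, among 11142 genes, reflect the same contrasts, and the libraries share cell types, days and mice, so these values are descriptions. Ccnd2 was followed by Ebf1 (Pearson r = 0.988), Bgn (0.985) and Ccdc80 (0.981), the first of them a transcription factor of adipogenic and B lineage cells and Bgn a matrix proteoglycan. Cdk4 was followed by Dctpp1 (r = 0.992), Rpp30 (0.989) and Fh1 (0.988), genes of nucleotide clean-up, transfer RNA processing and the citric acid cycle. Cdk6 was followed by Ankrd1 (r = 0.985), Met (0.984), the receptor of hepatocyte growth factor, and Slc38a1 (0.981), an amino acid transporter. Ccnd3 was followed by Sox8 (r = 0.970), Abr (0.962) and Spry1 (0.959), a feedback inhibitor of growth factor signalling. Ccnd1 was followed by Tarbp2 (r = 0.961), Bckdk (0.958) and Nacc1 (0.953), and Cdkn2a by Dapk2 (0.976), Ank1 (0.966) and 1110002E22Rik (0.965). The closest genes were weaker for Cdkn1a (St8sia2, r = 0.927), Cdkn2c (Ppp1r9a, 0.925), Cdkn2b (Adamts7, 0.811) and Cdkn1b (Dstyk, 0.810).

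Some members share exon bases with a gene on the opposite strand in GENCODE M21, and reads of the pair cannot be told apart unless the counting used strand, which is not given in the sources used here. Cdk4 shares 641 bases (19.7% of its exons) with Tspan31, which was 90.6 ± 5.07 CPM in control satellite cells on day 3 and 122 ± 7.31 on day 7, and 181 ± 13.3 and 157 ± 9.41 in control FAPs (SD, n = 4). By these means Tspan31 was lower in satellite cells, where Cdk4 was higher. In control satellite cells the Tspan31 mean was higher on day 7, where Cdk4 fell, but these CPM are on column totals. On that scale the median day difference over all genes was 0.39 in control satellite cells, against 0.03 with TMM. The day change of Tspan31 was not tested. In FAPs the means of Tspan31 and Cdk4 both fell to day 7, Cdk4 from 379 ± 10.6 to 242 ± 38.5 CPM in control muscle. Ccnd1 shares 1100 bases (23.4%) with LTO1, whose group means were 12.1 to 27.7 CPM. In control FAPs LTO1 was 18.4 ± 2.6 CPM on day 3 and 19.3 ± 0.944 on day 7, against 37.0 ± 8.17 and 20.7 ± 7.98 for Ccnd1. In control satellite cells LTO1 was 12.1 ± 3.23 and 25.8 ± 1.84, against 156 ± 49.2 and 126 ± 64.8 for Ccnd1. Ccnd3 shares 361 bases (4.11%) with Bysl, which was 94.2 ± 25.1 CPM in control satellite cells on day 3 and 57.1 ± 6.93 on day 7. The part of shared reads in the values of the members was not tested. A Ccnd3 pseudogene, Ccnd3-ps, had a median of 14 counts per library.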

How the data were processed

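RNA of sorted cells (RNAeasy micro kit, then the SMARTer Ultra Low kit, per the labels' protocols) was sequenced in 32 libraries. The authors made and deposited a table of estimated counts per gene for each day, with DRAGEN and mm10 named per the submitters' processing notes. Each table had 16 library columns and 0 columns without a sample. For the annotation and the strand setting of the counting, nothing is stated in those sources. Of 55774 entries per table, 287 repeated identifiers were dropped, which left 55487 genes. Of the nonzero values 71.8% were whole, and rounding moved no library total by more than 3.4e-04%.

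Rounded counts were fitted with edgeR 4.0.16 in R 4.3.3 (TMM scaling, filterByExpr by group with a minimum count of 10 and a minimum total of 15, quasi-likelihood test, Benjamini-Hochberg adjustment, threshold 0.05), with DESeq2 1.42.0 as an alternative. Comparisons within a day had the mouse as a block, since the design text says that muscles were paired within a mouse. Sample codes give the mouse; at day 3 the libraries without a code were taken as 1 mouse, which is an inference. Libraries of the same mouse deviated together with a mean correlation over 4 pairs of 0.0323 (-0.383 to 0.515) in day 3 satellite cells, 0.52 (0.172 to 0.729) in day 7 satellite cells, 0.227 (-0.0255 to 0.397) in day 3 FAPs and 0.682 (0.564 to 0.807) in day 7 FAPs. With the mouse as a block, p-values measure the spread of differences within mice, with 4 mice per day. Comparisons of day 7 with day 3 had no block, and their p-values measure the spread between mice. No libraries of a group were duplicates (smallest chi-square per degree of freedom 17.1 over 48 pairs).

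All 10 members are described. From each list of related genes, those called with the smallest p-values, up to 2 in each direction, were eligible to be named, and up to 3 genes most alike to a member by Pearson correlation (mean of at least 5 CPM). The members and lists were chosen with earlier results of these data known. Exons and overlaps come from GENCODE M21 and promoters from RefSeq. On simulated counts for the 12 comparisons without an interaction, 79.2 to 96.1% of 4-fold and 20.6 to 72.8% of 2-fold changes were recovered, with 4 to 18 false calls. The lowest share of 2-fold changes, 20.6%, was for day 7 against day 3 in BAT FAPs. The simulation changed a far smaller part of the genes than was called between cell types or days, so recovery there can differ.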

Additional observations from a re-analysis of the deposited data

Results flagged for a closer look

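In 4 of 80 groups of 4 libraries, a member had 1 library far from the other 3, and chance alone gives about 1 in 20 such groups. Ccnd1 was 218 CPM in day 3 BAT satellite cell replicate 3, against 111 to 124 CPM in the others. Ccnd2 was 137 CPM in day 7 control satellite cell replicate 2, against 43.8 to 59.2 CPM, in the library with the highest FAP marker sum among satellite cells. Cdk6 was 38.2 CPM in day 3 BAT FAP replicate 1, against 16 to 17.1 CPM, in the library with 6066 CPM of macrophage markers; the part of these markers was not tested. Cdkn2a was 0.0816 CPM in day 7 control FAP replicate 1, against 0.589 to 0.686 CPM, a value of 2 counts.

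The change from day 3 to day 7 in control muscle differed between the cell types for Ccnd2 (3.03, satellite cells minus FAPs, edgeR adjusted p = 0.00159), Ccnd3 (1.41, edgeR adjusted p = 3.53e-04), Cdk6 (-1.98, edgeR adjusted p = 8.77e-04) and Cdkn1a (-1.80, edgeR adjusted p = 0.00323).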

How the results depend on the processing

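Of 949 values of 84 member differences under the alternatives, 911 kept their direction and their side of the threshold, 19 gained a call, 9 lost one and 10 changed sign, all 10 among differences that were not called. The 84 were all called differences and a chosen part of those not called, so these counts do not stand for all member differences. Without the replicate block, the day 7 difference of Cdkn1a between cell types in control muscle was -0.03, and leaving out 1 mouse at a time gave -0.20 to 0.33. The block changed no count of members called in the comparisons fitted with it (8, 6, 9 and 6 between cell types, 4 for the change between days, 0 for BAT). Scaling by column totals, an alternative chosen after seeing the data, turned the day 7 difference between cell types of Cdkn1b to 0.06 and of Cdkn2b to 0.23, the day difference of Ccnd2 in control FAPs to -0.05, and the interaction of Cdk4 to 0.05. Leaving out 1 library or mouse at a time gave -0.56 to 0.07 for Cdkn2b, -0.16 to 0.16 for Ccnd2 and, for the interaction of Ccnd1, -0.18 to 0.40. The count of members called between days in control FAPs was 2 to 5 (4 with all libraries), and in BAT FAPs DESeq2 called 5 against 3. The causes were not tested. With 4 mice a group, low counts limit Cdkn2a in FAPs.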
